A study of Mus musculus with 4 samples.

Results

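The CC chemokine genes Ccl2, Ccl7, Ccl5 and Ccl9 of mouse chromosome 11 were followed in 3T3 cells, a mouse line that the labels call pre-osteoblast, with and without recombinant LTα1β2. They were matched by symbol from the Ensembl identifiers of the deposited table, and all 4 were found among its 12208 genes and passed the filter on low values that left 12160. The 4 groups were control and LTα1β2-treated cells, each at 24 h and at 48 h, with 1 RNA-seq library in each, so no difference at 1 time has a replicate check. The sources used here state neither the dose of LTα1β2, nor the control agent, nor the number of cultures behind a library. They state no genotype for the cells either, and 3T3 is a name shared with mouse fibroblast lines. LTα1β2 is the membrane form of lymphotoxin, a TNF family ligand, and was given here as a recombinant protein.

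CC chemokines are small secreted proteins named for a pair of adjacent cysteines, and they draw leukocytes along a gradient through G protein-coupled receptors of the CCR family. The lymphotoxin β receptor signals through both arms of NF-κB, and in stromal cells of lymphoid tissue this signal is known to raise chemokine genes. Ccl2 and Ccl7 encode monocyte chemoattractant proteins that act through CCR2, and CCL7 also binds CCR1 and CCR3. Ccl5 encodes RANTES, a chemokine that attracts T cells and monocytes. Ccl9 encodes MIP-1γ, a mouse ligand of CCR1 that osteoclasts are known to make and respond to.

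Levels are in CPM, counts per 1000000 reads of the listed genes. Depth, as reads recovered from these values, was 11355974 to 15995777 per library. The treated 48 h library stood apart: weighted by reads, its median transcript was 2847 bases long and those of the others 3320 to 3403, so results at 48 h are also given with the trend of fold on transcript length removed. Of 12 mesenchymal and osteoblast markers 10 had a row, of which 5 fell and 0 rose in the limma test of treatment over both times, where 2.27% of all tested genes fell and 2.92% rose. A limma fit with 9.76 prior degrees of freedom gives weight to each gene's own spread. With 1 library per group, that spread is the gap between the gene's folds at the 2 times. In this fit 1 of the 10 fell. In that fit 25 of all 12160 tested genes fell. With the length trend removed 4 of the 10 fell and 1 rose, where 381 of all tested genes fell and 526 rose. Their summed levels at 24 h were 42221 CPM without and 30379 CPM with LTα1β2, and at 48 h 41752 and 25637 CPM. Among them were Col1a1, Runx2 and Sp7, while Thy1 and Alpl were not among the genes analysed here. Of 14 macrophage and leukocyte markers 4 had a row (Cd68, Csf1r, Cd14 and Lyz2), and the defining Ptprc, Adgre1 and Itgam did not. Their summed level was 72.1 and 67.9 CPM in control and treated cells at 24 h, and 83.8 and 98.2 CPM at 48 h, of which Lyz2 alone gave 53.8 to 82.9. No leukocyte marker passed the limma test of treatment (0 rose and 0 fell of 4). Cd14 was higher in both treated libraries than in both controls, as were 20.8% of all tested genes. It was at 7.06 and 10.5 CPM at 24 h and 8.399 and 12.3 CPM at 48 h, control first. Its ratios were 1.49 (1.16 to 1.92) and 1.47 (1.14 to 1.90), with a limma adjusted p of 0.117. Csf1r went the other way, as did 21.3% of all tested genes, with 1.56 and 0.867 CPM at 24 h and 1.07 and 0.793 CPM at 48 h. Control and treated levels of Cd68 and Lyz2 overlapped. Of 8 endothelial and epithelial markers 0 had a row. The part of these shifts in the results was not tested. In bulk RNA, a change in the number of cells that express a gene and a change in RNA per cell cannot be told apart.

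The 4 genes lie in a pair of groups on chromosome 11 of GRCm38, as annotated by GENCODE M21, a build that may not be the one the authors used. Ccl2 (ENSMUSG00000035385.5, chr11:82035571-82037453) and Ccl7 (ENSMUSG00000035373.2, chr11:82045712-82047525) are on the plus strand with 8.3 kb between them. Ccl5 (ENSMUSG00000035042.2, chr11:83525778-83530518) and Ccl9 (ENSMUSG00000019122.8, chr11:83572919-83578636) are on the minus strand, 42.4 kb apart and 1.48 Mb beyond Ccl7. Of the 11 CC chemokine genes annotated on this chromosome the other 7, Ccl11, Ccl12, Ccl8, Ccl1, Ccl6, Ccl3 and Ccl4, had no row. The table lists no gene with fewer than 9 reads in any library. Little of these transcripts was shared with other genes. For Ccl2, Ccl7 and Ccl5 0% of 50-base windows of the annotated mRNA occurred in a transcript of another gene, and for Ccl9 2.0% did.

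Ccl2 and Ccl7, the monocyte attractant pair, both rose and stood in a like proportion to each other in every library. The level of Ccl2 at 24 h was 11.5 CPM without and 79.4 CPM with LTα1β2, and at 48 h 10.2 and 121 CPM. That of Ccl7 was 3.81 and 26.0 CPM at the earlier time and 3.51 and 43.0 CPM at the later. Both treated libraries were far above both controls for each gene, and the treated 48 h library was the highest. For Ccl2 the ratio of treated to control was 6.90 at 24 h (95% counting interval 5.91 to 8.11) and 11.8 at 48 h (9.86 to 14.2). For Ccl7 it was 6.82 (5.20 to 9.09) and 12.2 (9.03 to 16.9). The ratio of Ccl7's fold to Ccl2's was 0.989 at 24 h (0.724 to 1.35) and 1.04 at 48 h (0.731 to 1.47), so a difference of up to about those bounds was not detectable at this depth.

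Since a ratio of reads within a library does not depend on how libraries are scaled, it was also taken directly. There were 3.02 Ccl2 reads per Ccl7 read in control at 24 h (2.25 to 4.10) and 2.91 in control at 48 h (2.07 to 4.17). In treated cells the ratio was 3.05 at 24 h (2.72 to 3.43) and 2.81 at 48 h (2.53 to 3.12). The 4 intervals overlapped while the level of each gene differed over 10-fold between the lowest and the highest library. The annotated mRNAs are 813 bases for Ccl2 and 801 for Ccl7, so the length trend of the treated 48 h library bears on both almost equally, and per length the ratios were 2.97, 2.87, 3.01 and 2.76 in the same order.

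**Figure D1:**
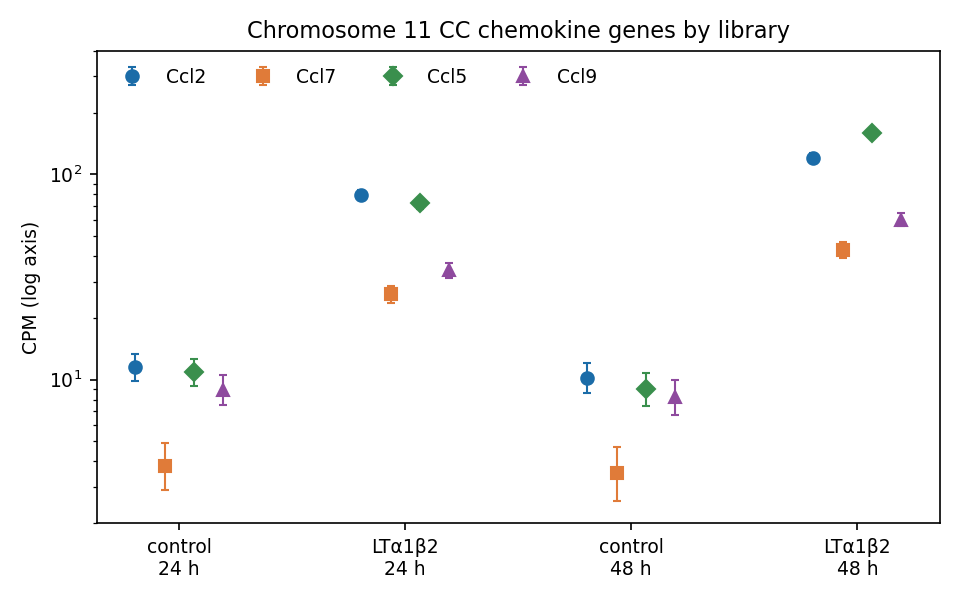
CPM (log axis) of the 4 genes in each library, with 1 point per gene and library and bars for the exact 95% Poisson counting interval. In control all 4 genes lie between 3.51 and 11.5 CPM, and in treated cells between 26.0 and 158 CPM.

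Ccl5, the T-cell and monocyte attractant, had the greatest fold of the 4 genes at 48 h. Its level at 24 h was 10.9 CPM without and 72.3 CPM with LTα1β2, and at 48 h 9.01 and 158 CPM. The control values lay close together, and the treated 48 h library held over 2 times the level of the treated 24 h library. The ratio to control was 6.64 at 24 h (5.66 to 7.84) and 17.6 at 48 h (14.6 to 21.4). Among the 12160 tested genes it ranked 5 from the top at 24 h and 1 at 48 h.

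At 24 h the folds of Ccl5 and Ccl2 differed by less than counting error, and at 48 h that of Ccl5 was greater. Its fold over that of Ccl2 was 0.962 at 24 h (0.770 to 1.20) and 1.49 at 48 h (1.15 to 1.93). Reads of Ccl5 per read of Ccl2 were 0.946 (0.764 to 1.17) and 0.881 (0.682 to 1.14) in control at 24 h and 48 h and 0.910 (0.837 to 0.989) in treated cells at 24 h. In treated cells at 48 h the ratio was 1.31 (1.22 to 1.41), above the other 3 libraries. The annotated Ccl5 mRNA is short, 532 bases, and the read-weighted median transcript of that library was the shortest, at 2847 bases. Whether expression or library making gave that shift was not tested. With the length trend removed the log2 difference between the folds of Ccl5 and Ccl2 at 48 h was 0.42, against 0.56 as deposited.

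Ccl9, the CCR1 ligand, also rose. Its level at 24 h was 8.94 CPM without and 34.0 CPM with LTα1β2, and at 48 h 8.25 and 60.2 CPM. The treated libraries again stood clear of the controls, but the distance was smaller than for the other members. Its ratio to control was 3.81 at 24 h (3.16 to 4.62) and 7.30 at 48 h (5.96 to 9.03). At 24 h its fold was 0.551 of that of Ccl2 (0.433 to 0.702), 0.558 of that of Ccl7 (0.402 to 0.774) and 0.573 of that of Ccl5 (0.448 to 0.732). Reads of Ccl9 per read of Ccl2 at 24 h were 0.777 in control (0.620 to 0.972) and 0.429 in treated cells (0.386 to 0.476). At 48 h they were 0.806 (0.620 to 1.05) in control and 0.4996 (0.455 to 0.548) in treated cells.

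Ccl9 has the longest annotated mRNA of the 4, 3006 bases. It had the lowest fold of them at 48 h with or without the length trend, but its distance from the others was smaller once the trend was removed. The log2 difference between the folds of Ccl9 and Ccl2 was -0.87 at 24 h and -0.71 at 48 h as deposited. With the trend removed it was -0.84 and -0.26, and the 48 h difference from Ccl7 went from -0.56 to -0.11. These differences are on the log2(CPM + 1) scale, which understates changes of low genes. Ccl7 was at 3.51 CPM in control at 48 h. From reads, with the trend kept, the 48 h fold of Ccl9 was 0.620 of that of Ccl2 (0.473 to 0.812). It was 0.597 of that of Ccl7 (0.415 to 0.859) and 0.415 of that of Ccl5 (0.315 to 0.547). In all, 6 pairs of genes were compared at each time, 12 ratios of folds, with no p-value. These intervals use a normal approximation on the log scale and cover counting error only.

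**Figure D2:**
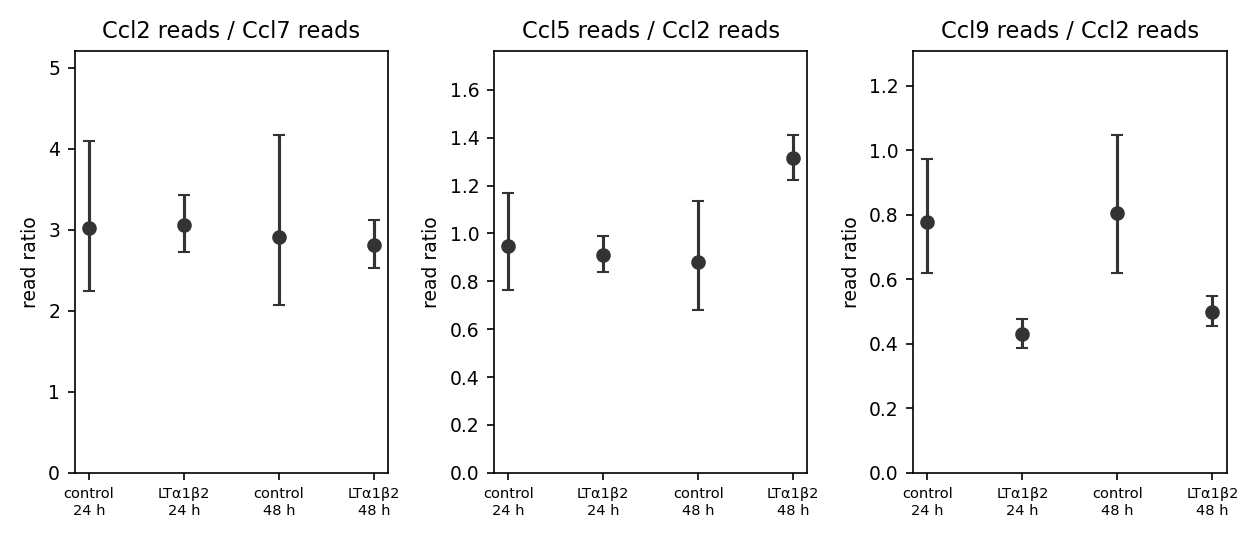
Reads of one gene per read of another in each library (linear axis from 0), with exact 95% counting intervals. Ccl2 to Ccl7 stays between 2.81 and 3.05, Ccl5 to Ccl2 is highest in the treated 48 h library at 1.31, and Ccl9 to Ccl2 is lower in treated cells (0.429 and 0.4996) than in control (0.777 and 0.806).

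Of the 4 members, RefSeq's table of promoters (GRCm38.p6) held 1 entry, that of Ccl9. It is shown because it lets the sequence just upstream of a gene raised at both times be read against the NF-κB and AP-1 letters. The window is chr11:83578587-83578886 on the minus strand, with 250 bases before the start and 50 after it, and capitals mark matches to the searched motifs.
Ccl9 promoter: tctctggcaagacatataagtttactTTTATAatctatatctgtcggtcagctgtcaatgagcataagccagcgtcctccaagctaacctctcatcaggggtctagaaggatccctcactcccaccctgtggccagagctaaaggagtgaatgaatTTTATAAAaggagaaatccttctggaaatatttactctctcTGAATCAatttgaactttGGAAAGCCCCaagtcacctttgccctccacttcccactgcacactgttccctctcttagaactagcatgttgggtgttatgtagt
Motifs were searched on both strands. The outer bases of NF-κB sites, GGG and CC with any 5 bases between them, matched once at 35 bases before the start, on the reverse strand. This motif is in 50.8% of the 32851 promoters listed by RefSeq and in 67.1% of the 11835 that belong to tested genes, so a match is common. TGANTCA, the AP-1 site, matched once at 53 bases before the start and is held by 7.81% of all listed promoters and 4.99% of those of tested genes. TATAAA, the TATA box, matched 3 times, at 92, 94 and 224 bases before the start, the first 2 of them overlapping, and is held by 13.6% and 7.07%. The core of the interferon-stimulated response element, GAAA repeated after any 2 bases, is not in this window and is held by 3.44% and 3.1%. A match describes letters only and shows no binding.

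Per length of annotated mRNA the order of the levels differed from that of the CPM. In CPM per 1000 bases of transcript, Ccl5 was at 20.4 and 16.9 in control at 24 h and 48 h, Ccl2 at 14.1 and 12.6, Ccl7 at 4.76 and 4.38 and Ccl9 at 2.97 and 2.74. In treated cells Ccl5 was at 136 and 298, Ccl2 at 97.7 and 148, Ccl7 at 32.5 and 53.6 and Ccl9 at 11.3 and 20.04. The order Ccl5, Ccl2, Ccl7, Ccl9 held in all 4 libraries on this scale. It rests on the longest basic transcript of each gene, and which transcripts these cells make was not tested. The per-length ratio of Ccl5 to Ccl2 had an interval above 1 in each library, the lowest being 1.35 (1.04 to 1.74) in control at 48 h. Among genes with a length, per-length levels in treated cells at 48 h lay at the 98.2 percentile for Ccl5, 96.5 for Ccl2, 88.8 for Ccl7 and 70.1 for Ccl9. In control at 48 h they lay at 64.3, 55.4, 27.5 and 19.3.

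The 4 genes together took 35.1 CPM without and 212 CPM with LTα1β2 at 24 h, and 31.0 and 382 CPM at 48 h, a ratio of 6.03 at 24 h (5.51 to 6.60) and 12.3 at 48 h (11.1 to 13.7). Ccl5 made up 31.0% (27.2 to 35.0) and 29.1% (24.7 to 33.7) of their reads in control, 34.1% (32.5 to 35.8) in treated cells at 24 h and 41.5% (40.0 to 42.9) at 48 h. Ccl9 went the other way, from 25.4% (21.9 to 29.3) and 26.6% (22.4 to 31.2) in control to 16.1% (14.8 to 17.4) and 15.8% (14.7 to 16.9) in treated cells. Intervals of shares are exact binomial (Clopper-Pearson).

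Whether treatment changed these genes over both times was tested with the additive limma model of time and treatment, fitted to all 12160 genes and adjusted by the Benjamini-Hochberg method. All 4 rose, where 2.92% of tested genes rose and 2.27% fell. On the log2(CPM + 1) scale the effect was 3.31 ± 0.18 (SE) for Ccl5, the highest of all tested genes. It was 3.06 ± 0.18 for Ccl2, the second (limma adjusted p = 1.59e-74 and 5.12e-64). Ccl7 had 2.89 ± 0.19 and Ccl9 2.27 ± 0.18 (limma adjusted p = 2.43e-47 and 2.22e-32). This fit has 1 residual degree of freedom and took each gene's spread wholly from genes of like level, not from its own values. With prior degrees of freedom of 9.76 a gene's own spread counted. That value was borrowed from the fit after median-of-ratios rescaling, since the main fit gave no finite one. With 1 library per group, own spread is the difference between a gene's folds at the 2 times, not a spread of replicates. The limma adjusted p was then 4.11e-05 for Ccl2, 0.000138 for Ccl7, 0.000211 for Ccl5 and 0.00106 for Ccl9.

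By the rule of size, a fold of at least 2 on the log2(CPM + 1) scale, all 4 were higher at 24 h, where 0.345% of tested genes were (0.181% were lower), and at 48 h, where 1.86% were (0.715% were lower). Their log2 folds were 2.69, 2.49, 2.62 and 1.82 for Ccl2, Ccl7, Ccl5 and Ccl9 at 24 h, beside a median of 0.02 over all tested genes. At 48 h they were 3.44, 3.28, 3.99 and 2.73, beside a median of -0.09. In 20.8% of tested genes both treated libraries were above both controls, as in all 4 members, and in 21.3% both were below.

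**Figure D3:**
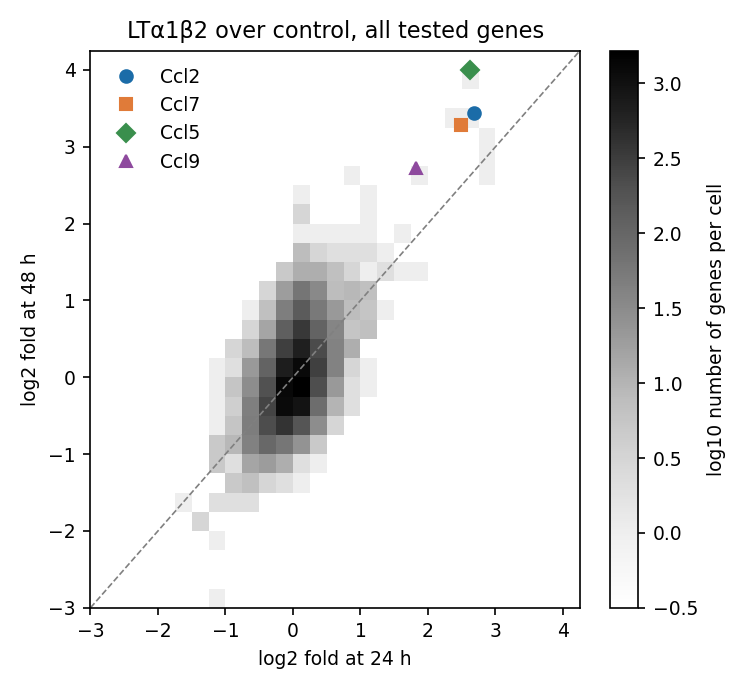
Log2 fold of treated over control at 24 h (x axis) and 48 h (y axis) on the log2(CPM + 1) scale, with grey cells for the number of tested genes (log10 shading) and 1 marker per chemokine gene. The 4 genes lie at 1.82 to 2.69 at 24 h and 2.73 to 3.99 at 48 h, above the dashed line of equal folds.

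The change from 24 h to 48 h was given for control and treated cells apart. In control the 48 h level over the 24 h level was 0.889 for Ccl2 (0.707 to 1.12), 0.921 for Ccl7 (0.614 to 1.37), 0.828 for Ccl5 (0.650 to 1.05) and 0.922 for Ccl9 (0.712 to 1.19). Each of these intervals includes 1, so no change with time was detectable in control at this depth. By the rule of size 0 of the 4 changed there, as 0.00822% of tested genes were higher and 0.0247% lower. In treated cells the same ratio was 1.52 for Ccl2 (1.40 to 1.64), 1.65 for Ccl7 (1.44 to 1.89), 2.19 for Ccl5 (2.03 to 2.37) and 1.77 for Ccl9 (1.58 to 1.99). Ccl5 alone passed 2-fold there, as did 1.04% of tested genes upward, with 0.428% lower. With the length trend removed its log2 change there went from 1.12 to 0.62, below 2-fold, so that 0 of the 4 passed.

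The fold at 48 h over the fold at 24 h was 1.71 for Ccl2 (1.35 to 2.16), 1.79 for Ccl7 (1.20 to 2.69), 2.65 for Ccl5 (2.07 to 3.38) and 1.92 for Ccl9 (1.46 to 2.53), as approximate counting intervals. With 1 library per group this difference has no test. It was smaller for the 3 short transcripts once the length trend was removed. The log2 difference between the times went from 0.75 to 0.42 for Ccl2, from 0.80 to 0.46 for Ccl7 and from 1.37 to 0.91 for Ccl5, while that of Ccl9 was 0.91 before and 1.00 after. The time term of the additive limma fit, which averages over both treatments, passed for 0 of the 4 (0.485% of tested genes rose and 0.493% fell). Its adjusted p was 0.214 for Ccl5, 0.38 for Ccl9, 0.505 for Ccl7 and 0.626 for Ccl2 (limma), and 1 of the 4, Ccl5, had an unadjusted p under 0.05.

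**Figure D4:**
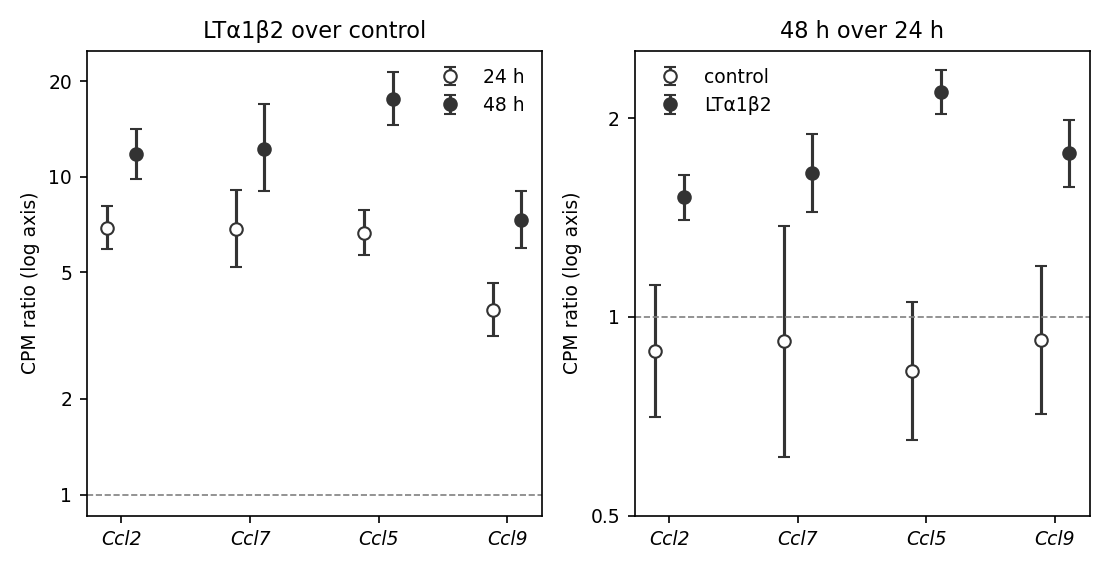
Ratio of CPM (log axis) for each gene, treated over control at 24 h and 48 h on the left and 48 h over 24 h in control and treated cells on the right, with exact 95% counting intervals and a dashed line at 1. On the right every control interval includes 1 and every treated interval lies above it.

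Of the 22 CC chemokine ligand genes listed, 6 had a row. Besides the 4 on chromosome 11 these were Ccl25 and Ccl27a, which encode attractants known from the thymus and gut and from the skin. Ccl25 gave 13.1 CPM without and 13.2 CPM with LTα1β2 at 24 h, and 10.99 and 12.9 CPM at 48 h. Ccl27a was at 2.31 and 1.67 CPM at 24 h and at 2.37 and 3.08 CPM at 48 h. The levels of control and treated libraries overlapped for Ccl25 and for Ccl27a. Neither gene passed the limma test (log2 effects of 0.11 and -0.02, adjusted p = 0.852 and 0.987).

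Chemokine receptor genes were hardly represented. Ccr1, Ccr2 and Ccr3, which encode the receptors named above for the members, had no row. Of 23 listed chemokine receptor genes 3 had a row, Ackr4, Ccr10 and Ackr3. Ackr4, an atypical receptor that removes certain chemokines without signalling, fell, with 5.31 CPM in control and 3.87 after treatment for 24 h and 6.26 and 2.29 CPM after 48 h (log2 effect -0.76 ± 0.22 SE, limma adjusted p = 0.0145). Its treated values lay below both controls, as in 21.3% of all tested genes. In the limma test 2.27% of all tested genes fell. At 9.76 prior degrees of freedom 0 of the 3 receptor genes passed. Ccr10 and Ackr3 did not pass, with log2 folds of -0.19 and 0.14 at 24 h and -0.90 and -0.60 at 48 h.

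Among genes of the receptor's signalling route to NF-κB, 5 of 14 rose and 0 fell, where 2.92% of all tested genes rose and 2.27% fell. Their median log2 folds were 0.33 at 24 h and 0.21 at 48 h. They were Birc3 (2.80-fold and 1.97-fold), Nfkb2 (2.24-fold and 1.87-fold), Birc2 (1.88-fold and 2.20-fold), Map3k14 and Relb. Birc2 and Birc3 encode ubiquitin ligases of the receptor complex, and Nfkb2 and Relb encode the subunits of the non-canonical arm. Each was raised less than any of the 4 chemokine genes at either time, and Relb was 1.55-fold and 1.58-fold higher. Ltbr, the receptor itself, was at 156 and 151 CPM at 24 h and 150 and 130 CPM at 48 h and did not pass (adjusted p = 0.808, limma). Of 7 tested NF-κB inhibitor and feedback genes 4 rose and 0 fell, led by Nfkbie (3.84-fold and 2.88-fold) and Nfkbia (3.03-fold and 2.67-fold), which encode IκB proteins, and Tnfaip3. At 9.76 prior degrees of freedom 3 of the 14 and 2 of the 7 rose, where 39 of all 12160 tested genes did.

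Of 14 other transcription factor genes reported at chemokine promoters 4 rose and 0 fell, where 2.92% of all tested genes rose and 2.27% fell. Their median log2 fold was 0.09 at the earlier and 0.48 at the later time. Cebpd, a C/EBP factor gene induced by inflammatory signals, was 1.92-fold and 2.59-fold higher. Irf1 was 1.67-fold and 1.86-fold higher and Junb, of the AP-1 family, 1.66-fold and 1.60-fold. Irf7 was the other, at 1.05-fold and 2.17-fold, so it was hardly different at 24 h. At 9.76 prior degrees of freedom 1 of the 14 rose, where 39 of all 12160 tested genes did.

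Genes that act on chemokine mRNA or protein mostly did not pass the limma test, in which 2.92% of all tested genes rose and 2.27% fell. Of 8 regulators of AU-rich and stem-loop mRNA decay 0 rose and 0 fell. Zc3h12a, which encodes the RNase Regnase-1, had the largest effect of them, 0.26 ± 0.19 (SE), with an adjusted p of 0.572 (limma), followed by Khsrp at -0.12 and Elavl1 at -0.10. Of 6 tested proteases reported to cut CC chemokines 1 rose, the gelatinase gene Mmp9. Its level was 11.2 CPM without and 93.4 CPM with LTα1β2 at 24 h, and 20.8 and 147 CPM at 48 h. Mmp2 and Mmp14 gave log2 effects of -0.48 and -0.30 and did not pass. Of 7 tested syndecan and glypican genes, whose heparan sulfate chains hold chemokines at the cell surface, 1 fell, Sdc2 (640 and 497 CPM at 24 h, 732 and 429 CPM at 48 h, control first). Gpc4 and Gpc6 had log2 effects of -0.41 and -0.40 and did not pass. At 9.76 prior degrees of freedom Mmp9 was called and Sdc2 was not, where 39 of all 12160 tested genes rose and 25 fell.

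Most tested genes beside the chemokine genes on chromosome 11 did not pass the limma test. Within 500 kb of the start of a member 13 other tested genes were found, all of them near Ccl5 or Ccl9 and 0 near Ccl2 or Ccl7. Most annotated genes there were not tested: of 32 other protein-coding genes 11 were. Around Ccl2 it was 0 of 7, and likewise around Ccl7. Of the 13, 1 rose (7.69%, against 2.92% of all tested genes) and 0 fell. The median log2 fold was -0.05 at 24 h and -0.30 at 48 h. The closest, Taf15, starts at -52.7 kb from the start of Ccl5 in chromosome coordinates, and was at 124 and 141 CPM at 24 h and 132 and 132 CPM at 48 h. Mmp28, at -85.0 kb from Ccl5, was at 24.1 and 19.7 CPM and at 21.2 and 12.3 CPM, with an effect of -0.51 that did not pass (limma adjusted p = 0.083).

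The exception was Slfn2, a schlafen family gene at -461 kb from Ccl5. Its level was 20.3 CPM in control and 48.8 CPM after treatment at 24 h, and 18.0 and 103 CPM at 48 h, a ratio of 2.40 (2.10 to 2.74) and 5.72 (4.97 to 6.60). Slfn10-ps and 1700020L24Rik completed the 4 neighbours with the largest effects, at -0.58 each, and did not pass. Schlafen genes share sequence, so reads of Slfn2 may be less surely placed than those of the chemokine genes.

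**Figure D5:**
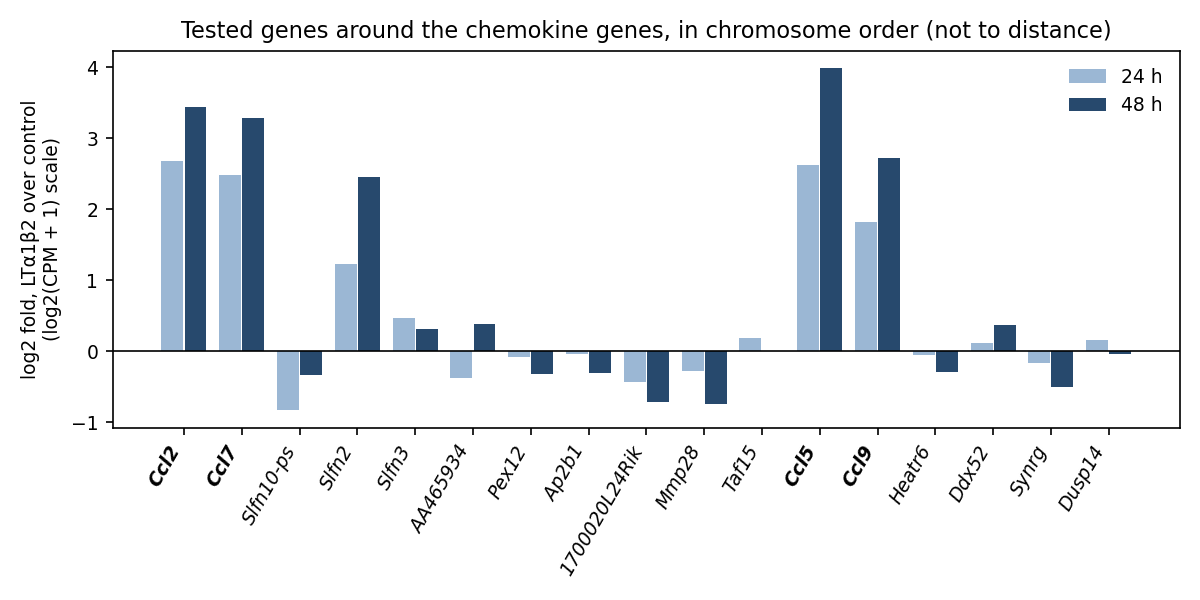
Log2 fold of treated over control at 24 h and 48 h (log2(CPM + 1) scale) for the 4 chemokine genes (bold) and the 13 other tested genes within 500 kb of them, in chromosome order and not to distance. The 4 chemokine genes and Slfn2 stand above 1 at both times, and the other 12 genes lie between -0.83 and 0.48.

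The genes whose profiles over the 4 libraries were most like the members were found by Euclidean distance between log2(CPM + 1) values, each gene centred on its own mean. Ccl7 was the nearest of all genes to Ccl2, at a distance of 0.19, and Ccl2 the nearest to Ccl7. Outside the members the nearest to Ccl2 were C3 (0.25), Serpina3g (0.52) and Mmp9 (0.73). The same 3 genes were nearest to Ccl7 (0.35, 0.43 and 0.66) and to Ccl5 (0.68, 0.90 and 0.95). This distance is not scaled to the size of a gene's change, so it draws together genes with folds of like size. The log2 effect of treatment was 3.04 for C3, 2.74 for Serpina3g and 2.86 for Mmp9. C3, the central complement component, was at 42.9 and 325 CPM at 24 h and at 42.1 and 393 CPM at 48 h.

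Ccl9 had other neighbours in this measure. They were Slfn2 (0.47), Casp4 (0.62), an inflammatory caspase gene, and Cxcl10 (0.64), which encodes a ligand of CXCR3. Ccl7 was the third closest of all genes to Ccl9, at 0.62, while Ccl5 ranked 20, at 1.07. Control and treated levels of Casp4 were 9.63 and 22.2 CPM at the earlier time and 7.71 and 39.5 CPM at the later. Those of Cxcl10 were 7.50 and 24.2 CPM, then 9.93 and 39.8 CPM. A distance over 4 libraries describes these libraries and has no test.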

How the data were processed

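The authors deposited 1 table of CPM for 12208 genes under versioned Ensembl identifiers, 1 column per library and 4 in all. Per the labels' protocols, libraries were made from 1 µg of total RNA with a directional kit and sequenced as 150 bp pairs. The submitters' processing notes list edgeR 3.30.0. The sources used here name no aligner, counter, build, annotation or filter, and do not say whether counting used the strand. Each column sums to 1000000 and 0 values were zero. The lowest value was 9 to 12 reads, so genes silent in a library are not analysed here. All values (100%) were whole multiples of 1 read within 0.01. These reads gave exact 95% counting intervals (conditional binomial, Clopper-Pearson), which cover counting error only.

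Symbols, coordinates and the longest basic transcript of each gene came from GENCODE M21 (12205 identifiers matched without version, 11716 with it). A log2 fold is taken on log2(CPM + 1), a scale that understates changes of low genes. An additive model of time and treatment was fitted with limma 3.58.1 in R 4.3.3 to genes whose mean CPM was 1 or more, with a trended prior, two-sided tests and a Benjamini-Hochberg threshold of 0.05. It treats the 2 times as repeats of the treatment. Nothing says that the libraries were separate experiments, so the p-values may measure technical spread. The length trend was a lowess of each library's deviation from the mean of the 4 on log2 transcript length. Intervals were made with scipy 1.17.1.

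The members and the 11 lists were chosen with earlier results of these data known, so no count over them is independent evidence. Named genes were the members, other CC ligands with a row, 3 genes nearest in profile to each member, up to 3 genes of each list by absolute effect, with Ltbr, Nfkb2 and Relb, and 4 neighbours. Taf15 and the other genes named besides these were chosen after their values were seen. Alternatives were pseudocounts of 0.25 and 5, no filter, a mean CPM of at least 5, median-of-ratios rescaling, length-trend removal, a threshold of 1.5-fold, no time term, no trend, fixed prior degrees of freedom, limma voom on the recovered reads, each library left out and shares per length. An edgeR fit was planned and was not run.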

Additional observations from a re-analysis of the deposited data

Results flagged for a closer look

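Each of the 4 genes was lower at 48 h than at 24 h in control and higher in treated cells, so the change with time had opposite signs. On the log2(CPM + 1) scale Ccl2 changed by -0.15 in control and 0.60 in treated cells, and Ccl7 by -0.093 and 0.70. Ccl5 changed by -0.25 and 1.12, and Ccl9 by -0.10 and 0.81. The difference was not tested, since each group is 1 library, and the control changes lie within counting error. Of all tested genes 13.8% show the same pair of signs.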

How the results depend on the processing

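All 4 genes passed the limma test of treatment under each of 14 alternatives run on them (56 of 56 values, highest adjusted p 0.0199, for Ccl9 without a time term). Of these values 16 leave out a library and rest on 1 library against 2, with no time term. The lone library is assumed to vary like the other group, and the spread comes from genes of like level. They gave log2 effects of 2.76 to 3.36 for Ccl2, 2.54 to 3.24 for Ccl7, 2.75 to 3.87 for Ccl5 and 1.87 to 2.68 for Ccl9, the lowest of each without the treated 48 h library. The time effect passed in 0 of 36 values (lowest adjusted p 0.0775). Of 64 folds between a pair of libraries under 4 alternatives 49 moved by less than their counting interval, 15 by more and 0 changed sign. A pseudocount of 5 gave 2.35, 1.82, 2.28 and 1.49 for Ccl2, Ccl7, Ccl5 and Ccl9 at 24 h and 3.04, 2.49, 3.54 and 2.30 at 48 h. Removing the length trend gave 3.07 for Ccl2 and 3.48 for Ccl5 at 48 h, and changes with time in treated cells of 0.24, 0.34 and 0.62 for Ccl2, Ccl7 and Ccl5. Median-of-ratios rescaling gave 0.73 and 1.26 for Ccl2 and Ccl5 there, and moved the median of all genes by 0.13. Shares per length were 48.3%, 46.2%, 49.0% and 57.3% for Ccl5 (control at 24 h and 48 h, then treated), 7.03%, 7.49%, 4.08% and 3.86% for Ccl9, and 35.2% and 28.5% for Ccl2 in treated cells.

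Counts over all genes depended on the fit. Against 355 that rose and 276 that fell, median-of-ratios rescaling gave 95 and 83, no time term 20 and 11, and 9.76 prior degrees of freedom 39 and 25. Leaving out a library gave 16 to 1886 and 6 to 3063; these were 23 and 8 without the 24 h control, 16 and 6 without the 48 h control, 1886 and 3063 with the 24 h treated library left out and 402 and 370 with the 48 h one left out. The cause was not tested. Genes that rose or fell with time numbered 59 and 60, against 0 to 76 and 0 to 102. Counts by the size rule, 42 and 22 at 24 h and 226 and 87 at 48 h, ranged from 19 and 5 and 126 and 28 (pseudocount 5) to 180 and 164 and 899 and 764 (1.5-fold). With time in treated cells they were 127 and 52, against 66 to 678 and 3 to 845, and in control 1 and 3, against 0 to 49 and 1 to 121. Ccl7 rests on 46 to 61 reads in control, which limits its ratios. Control and treated libraries were matched by time alone, through the time term of the model. No pairing by culture was possible, since each group is 1 library and the labels give no replicate numbers.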
